A study of Mus musculus with 12 samples.

Results

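Lysosomal hydrolases, lysosomal membrane proteins and the proton pump that acidifies the organelle were examined in macrophages of mouse bone marrow. The 40 genes were given as a list of symbols, of 23420 gene rows in the count table, and all 40 were found there by symbol. They comprise 15 genes of the proton pump, 7 of membrane proteins, 17 of hydrolases and other proteins of the lysosomal lumen, and 1 of a transcription factor, Tfeb. A total of 39 passed the filter on low counts and were among the 11806 genes tested. The exception was Atp6v0c.

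The 12 bulk RNA-seq libraries come from 2 mice of the C57BL/6 strain (C57BL/6J background), numbered 7 and 19 in the sample titles, with 3 libraries per bone and mouse. A first group of 6 libraries holds macrophages from tibias treated with mesenchymal stromal cells (MSCs), supporting cells of the marrow, and these are labelled MSC-educated. The other group of 6 holds macrophages from the untreated femurs of the same animals. Treatment and bone therefore change together and cannot be told apart, and the sources used here give neither the age of the animals, nor the route and time of the MSC treatment, nor the sorting markers, nor whether these animals carried the leukemia named in the series title. The labels do not say whether the 3 libraries of a bone came from separate sorts, so p-values over libraries measure the spread between libraries, which may be technical.

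The lysosome is the compartment in which macrophages break down what they engulf. Its hydrolases work at acid pH, which is kept by the V-ATPase, a rotary pump in which the cytosolic V1 sector splits ATP and the membrane-embedded V0 sector carries protons into the lumen. Glycosylated membrane proteins such as Lamp1 and Lamp2 line the limiting membrane, and Tfeb, with its relatives Tfe3, Mitf and Tfec, can activate many lysosomal genes by binding a motif built around CACGTG in their promoters.

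Library depth ran from 9773455 to 14869150 counts, with 13524 to 13902 genes detected per library. All 9 macrophage markers checked were present, from Mertk at 3.50 to 12.1 CPM (counts scaled to library size) to Csf1r at 783 to 1128 CPM. Together they summed to 1693 to 2229 CPM. Transcripts of other marrow cells were present too. The summed level of 5 classical monocyte markers was 7813 to 9408 CPM and that of 6 neutrophil markers 7912 to 13753 CPM. Both exceeded the macrophage sum in every library. Sums over different genes do not give shares of cells, so the markers do not show how pure the sorted macrophages were. The 6 marrow stromal markers summed to 2.47 to 9.54 CPM. The 5 granulocyte precursor markers (Mpo, Elane, Prtn3, Ctsg, Ms4a3) all passed the test as higher in the tibia, with summed levels of 650 to 677 CPM in the femur and 963 to 1206 in the tibia of mouse 7, and 1096 to 1386 and 1364 to 1697 CPM in mouse 19. Of 7 osteoclast markers, Calcr was at 0 in every library, and Ctsk lay between 0.631 and 4.34 CPM. Ocstamp, at only 0.702 to 5.14 CPM, passed as higher in the tibia (log2 1.12, edgeR adjusted p = 0.0023). Mmp9, at 220.1 to 523 CPM, passed as lower (log2 -0.36, edgeR adjusted p = 1.8e-05). All of the osteoclast markers but Mmp9 stayed at or below 5.14 CPM in every library. The part of these cells in the values below was not tested. In bulk libraries, a smaller number of cells of a type and less RNA per cell cannot be told apart.

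Promoter sequences show where the element bound by Tfeb occurs among these genes. RefSeq windows of GRCm38.p6, from 250 bases before to 50 after the annotated start, were at hand for 33 of the 40 genes. The hexamer CACGTG occurred in 10 of the 33 (30.3%), and in 8.09% of all 27025 genes with such a window. Its longer form TCACGTGA, which contains the hexamer, occurred in 5 of the 33 (15.2%) and in 1.13% of all genes. The longer form with G before it and C after it occurred in 0 of the 33 and in 0.37% of all genes. Each motif reads the same on both strands. TCACGTGA was found at Atp6v1a, Atp6v0d1, Atp6v0e, Gla and Mcoln1, and the hexamer alone at Atp6v0b, Gaa, Glb1, Lamp1 and Sgsh. The stretches of 5 of these genes are shown with the motifs in capitals, written 5′ to 3′ on the strand of the gene, because they include both pump genes that passed the test below and 3 of the genes with repeated motifs (Mcoln1, not shown, also held 2 copies of the hexamer).
Atp6v1a: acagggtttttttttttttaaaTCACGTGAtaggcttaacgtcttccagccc
Atp6v0d1: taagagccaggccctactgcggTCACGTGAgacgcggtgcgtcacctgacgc
Gla: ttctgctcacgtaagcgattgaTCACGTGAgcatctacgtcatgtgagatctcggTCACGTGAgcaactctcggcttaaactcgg
Lamp1: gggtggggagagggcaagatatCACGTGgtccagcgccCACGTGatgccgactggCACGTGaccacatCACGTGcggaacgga
Atp6v0b: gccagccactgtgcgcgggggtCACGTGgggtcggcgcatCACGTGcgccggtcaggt

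These stretches lie at chr16:44139362-44139413 (minus strand) for Atp6v1a, chr8:105566039-105566090 (minus) for Atp6v0d1, chrX:134601171-134601255 (minus) for Gla, chr8:13159078-13159160 (plus) for Lamp1 and chr4:117887330-117887387 (minus) for Atp6v0b. In Atp6v1a the motif ended 124 bases before the RefSeq start site, and in Atp6v0d1 it straddled the start site, with its last 4 bases after it. Lamp1 held 4 copies of the hexamer, the last ending 9 bases before the start, and Gla held 2 copies of TCACGTGA. Neu1, the hydrolase gene that passed the test, has none of the 3 motifs in its window. The 250 bases before its start, chr17:34931003-34931252 (plus strand), are shown in lower case for comparison.
Neu1: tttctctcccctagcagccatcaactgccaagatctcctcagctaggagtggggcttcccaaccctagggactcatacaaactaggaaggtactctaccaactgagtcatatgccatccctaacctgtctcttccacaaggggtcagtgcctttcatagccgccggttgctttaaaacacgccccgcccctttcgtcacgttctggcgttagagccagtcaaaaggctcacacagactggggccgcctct

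A motif match is a description of these letters and not a measured binding site. The motifs were picked because Tfeb is known to act on lysosomal genes through them. The higher share among these genes is therefore no independent result, and it carries no test.

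Within these libraries the genes differed widely in transcript level. Per kilobase of exon, the 39 tested genes spanned 333-fold, from 7.70 CPM per kb for Sgsh, the heparan sulfate sulfamidase, to 2566 for Psap, the precursor of the saposins that help hydrolases reach sphingolipids. Psap alone took 0.657 to 0.770% of all counts, and the 40 genes together 1.68 to 1.86%. The membrane glycoprotein Lamp1 (560 CPM per kb), the hematopoietic membrane protein Laptm5 (543) and Grn, the granulin precursor (338), followed. Hexa, the alpha subunit of beta-hexosaminidase, stood at 211 CPM per kb, Npc2, the soluble carrier of cholesterol, at 201, and Man2b1, the lysosomal alpha-mannosidase, at 183. In every library the Psap level per kb was 4.31 to 4.83 times that of Lamp1. Low levels were seen for Gla, the alpha-galactosidase (8.89 CPM per kb), Gaa, the acid alpha-glucosidase (11.0), Glb1, the beta-galactosidase (17.2), and Mcoln1, the lysosomal calcium channel (17.9). Neighbours in this order, such as Lamp1 and Laptm5 (library ranges of 518 to 611 and 499.7 to 601), overlap across libraries.

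**Figure D1:**
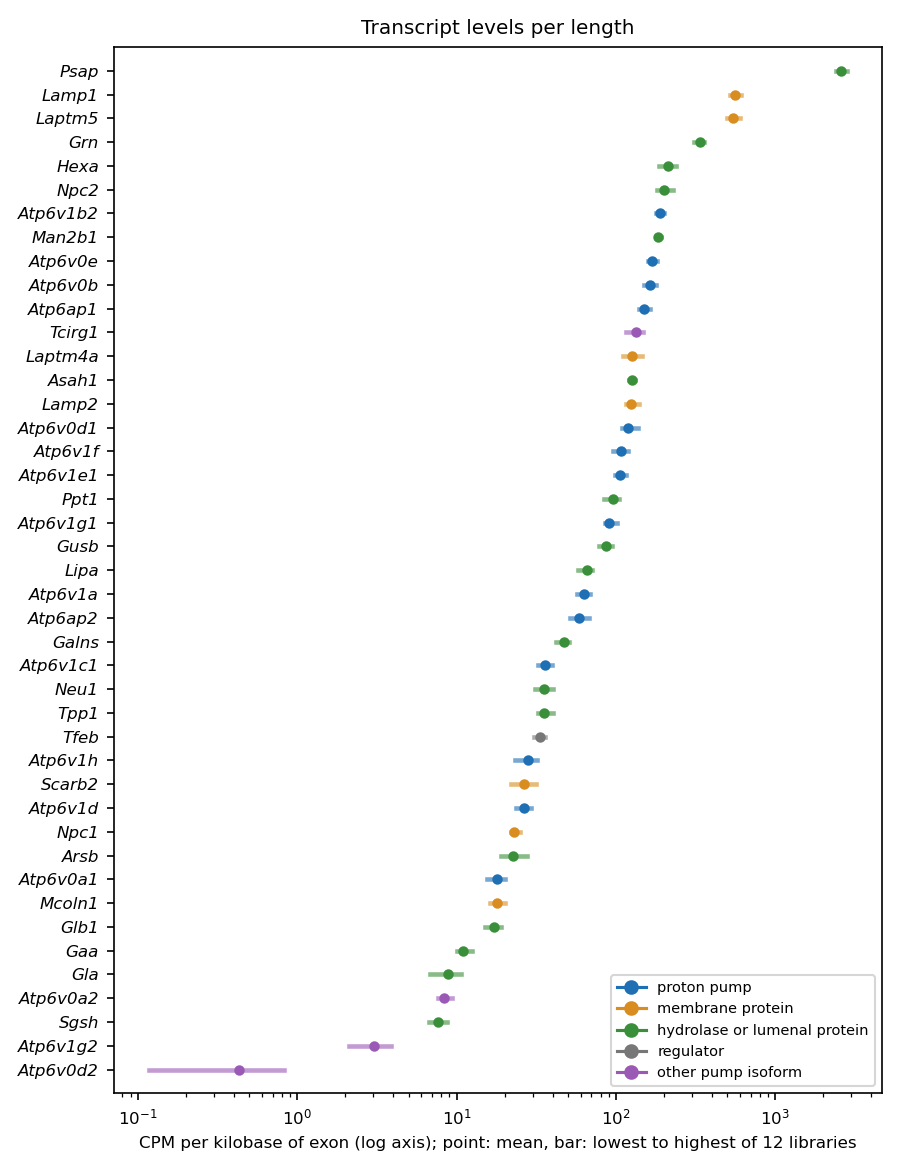
Transcript level of the 39 tested genes and of 4 other pump isoforms in CPM per kilobase of exon, on a log axis, where the point is the mean and the bar runs from the lowest to the highest of the 12 libraries. Psap stands apart at 2566 CPM per kb, and the pump isoform Tcirg1 lies above Atp6v0a1.

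Subunits of the pump were not at 1 level. The catalytic A subunit gene Atp6v1a averaged 62.9 CPM per kb, and Atp6v1b2, the B subunit that alternates with it in the V1 ring, averaged 189. The per-kb ratio of Atp6v1b2 to Atp6v1a was 3.21 ± 0.10 over the 6 femur libraries and 2.83 ± 0.17 (SD) over the 6 tibia libraries. Among the alternative a subunits, which set where in the cell the pump works, Tcirg1 (the a3 isoform, known from osteoclasts and macrophages) reached 133 CPM per kb, against 18.0 for Atp6v0a1 and 8.39 for Atp6v0a2. Tcirg1 exceeded Atp6v0a1 6.05-fold to 9.07-fold in the 12 libraries. Atp6v0a4, Atp6v1e2 and Atp6v1g3 held 0 counts in every library, and Atp6v1b1, Atp6v0e2 and Atp6v1c2 held 2, 4 and 7 counts over all 12. A count of 0 in a library allows up to 3 fragments, or 6 counts because both read ends were counted for most fragments, which is 0.404 to 0.617 CPM; this covers counting error only. Atp6v1g2 lay at 3.03 CPM per kb and Atp6v0d2, the d subunit isoform of osteoclasts, at 0.43. These isoforms are not among the 40 genes. Between the bones, the log2 change was -0.02 for Tcirg1, -0.05 for Atp6v0a2, 0.50 for Atp6v0d2 and -0.07 for Atp6v1g2, none past the threshold in edgeR (adjusted p 0.82, 0.64, 0.43 and 0.85).

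Atp6v0c, the proteolipid of the V0 rotor ring, was the 1 gene of the list without usable counts. It held 1, 1 and 0 counts in the femur libraries of mouse 19, 2, 0 and 0 in those of mouse 7, and 0 in the 6 tibia libraries, all below the floor of 6 counts. Its spliced transcript is 99.8% identical over 465 bases to the processed pseudogene Atp6v0c-ps2, which is listed at 0 in all 12 libraries, and 97.2% identical to Atp6v0c-ps1. The part of these copies in its low count was not tested. Atp6v0b, the related proteolipid gene, lay at 165 CPM per kb.

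Few of these transcripts differed between the treated tibia and the untreated femur. In the edgeR quasi-likelihood test over both mice, with Benjamini-Hochberg adjustment over all 11806 genes at 0.05, 3 of the 39 tested genes were higher in the tibia and 0 were lower. Over all genes tested, 3.51% were higher and 3.69% lower. The share of 3 in 39 lies above the 3.51%, but it rests on 3 genes and was not tested against it. At an unadjusted p under 0.05 there were 5 genes higher and 4 lower, where 9.60% and 11.2% of all genes were. DESeq2 called 4 of the 39 higher and 0 lower, and 478 and 546 of all genes. The median log2 fold change was 0.02 for the 39 genes and -0.0021 for all genes. The 3 were Atp6v1a and Atp6v0d1 of the pump and the sialidase gene Neu1.

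**Figure D2:**
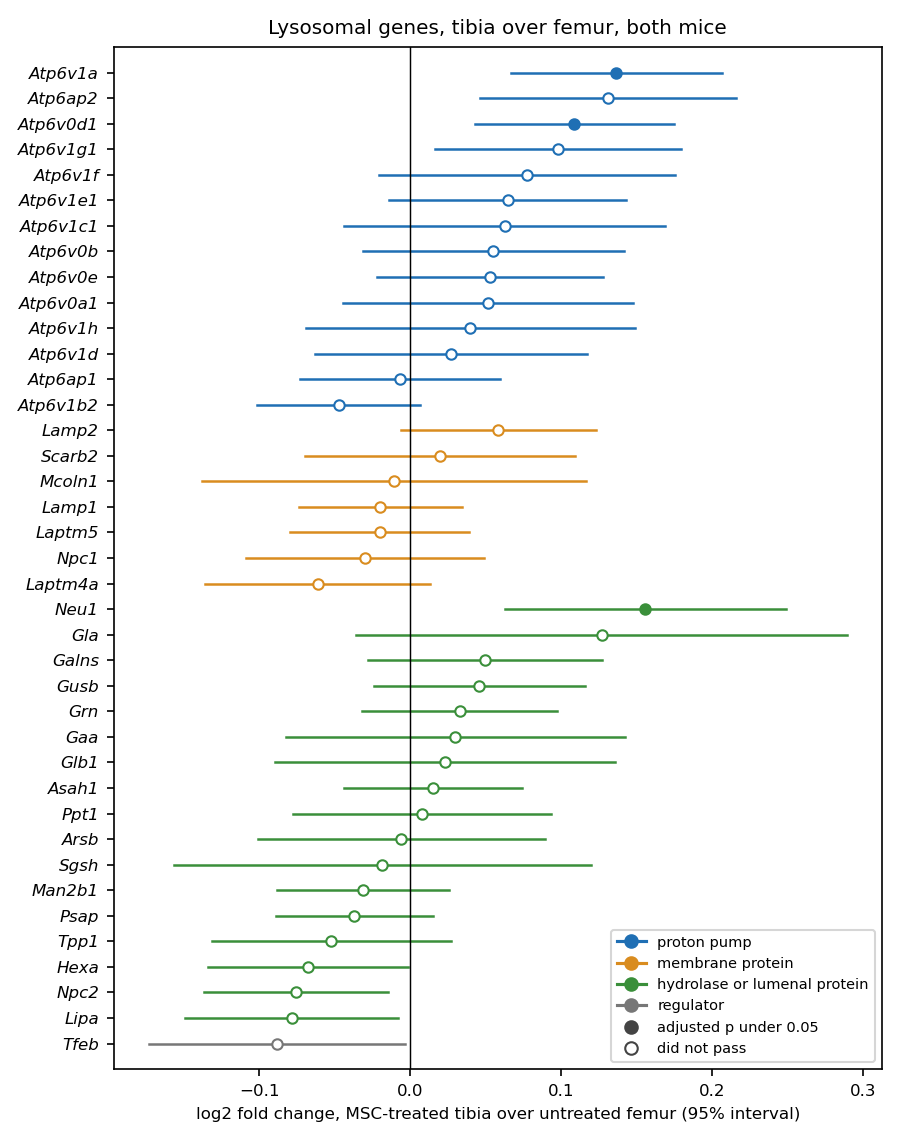
Log2 fold change of the 39 tested genes, treated tibia over untreated femur in both mice, with 95% intervals, grouped by role; filled points passed the edgeR test (adjusted p under 0.05). Of the 14 pump genes 12 lie right of 0, and 3 points are filled, Atp6v1a, Atp6v0d1 and Neu1.

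Atp6v1a encodes the V1 subunit that binds and splits ATP. Its levels were 244, 253 and 241 CPM in the femur libraries of mouse 7 and 285, 277 and 276 CPM in its tibia libraries. In mouse 19 they were 256, 261 and 266 CPM in the femur and 286, 258 and 289 CPM in the tibia. The groups did not overlap in mouse 7, while tibia 2 of mouse 19 fell inside the femur range, so that 5 of 6 tibia libraries exceeded all femur libraries of their own mouse. The mean rose from 254 ± 9.52 to 279 ± 11.4 CPM (SD, n = 6), a log2 fold change of 0.14 ± 0.03 (standard error; 95% interval 0.07 to 0.21) with an edgeR adjusted p of 0.014. The call held when any 1 of the 12 libraries was left out (adjusted p up to 0.041). With the 3 libraries of each bone added up, so that animals and not libraries are compared, the adjusted p was 0.42. The GENCODE model of Atp6v1a spans 44085402 to 44139705 on chromosome 16 of GRCm38; on the minus strand its outermost start is at 44139705, upstream of the RefSeq start, so that the motif stretch shown lies before the RefSeq start but within this model.

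Atp6v0d1 encodes the d subunit, which joins the central stalk of V1 to the V0 ring. It measured 177, 178 and 181 CPM in the femur and 184, 189 and 191 CPM in the tibia of mouse 7, and 194, 199 and 193 CPM against 223, 215 and 209 CPM in mouse 19. All 6 tibia libraries exceeded all femur libraries of the same mouse. The log2 fold change was 0.11 ± 0.03 (95% interval 0.04 to 0.17; edgeR adjusted p = 0.039, and 0.53 on sums per animal). The call held without tibia 3 in mouse 19 and without femur 3 or tibia 1 in mouse 7 (libraries by bone and number), and was lost without any 1 of the other 9 libraries, with adjusted p from 0.059 to 0.11. It was also lost without the filter on low counts (0.056).

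Neu1 encodes the lysosomal sialidase, which removes terminal sialic acids from glycoproteins and glycolipids. Its levels were 86.3, 77.1 and 85.7 CPM in the femur and 87.8, 86.8 and 89.9 CPM in the tibia of mouse 7. In mouse 19 they were 87.9, 76.5 and 84.1 CPM in the femur and 95.6, 95.4 and 99.0 CPM in the tibia. Again 6 of 6 tibia libraries exceeded all femur libraries of their mouse, by a narrow gap in mouse 7. The log2 fold change was 0.16 ± 0.05 (95% interval 0.06 to 0.25; edgeR adjusted p = 0.036, and 0.40 on sums per animal). In mouse 19 the call was lost without femur 2 or 3 or any of the tibia libraries, and in mouse 7 without femur 2 or tibia 3 (adjusted p 0.057 to 0.10). Atp6v0d1 and Neu1 were the 2 genes of the 39 with all 6 tibia libraries above, and 0 had all 6 below. Over all genes tested, 2.44% had all 6 above and 2.76% all 6 below.

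**Figure D3:**
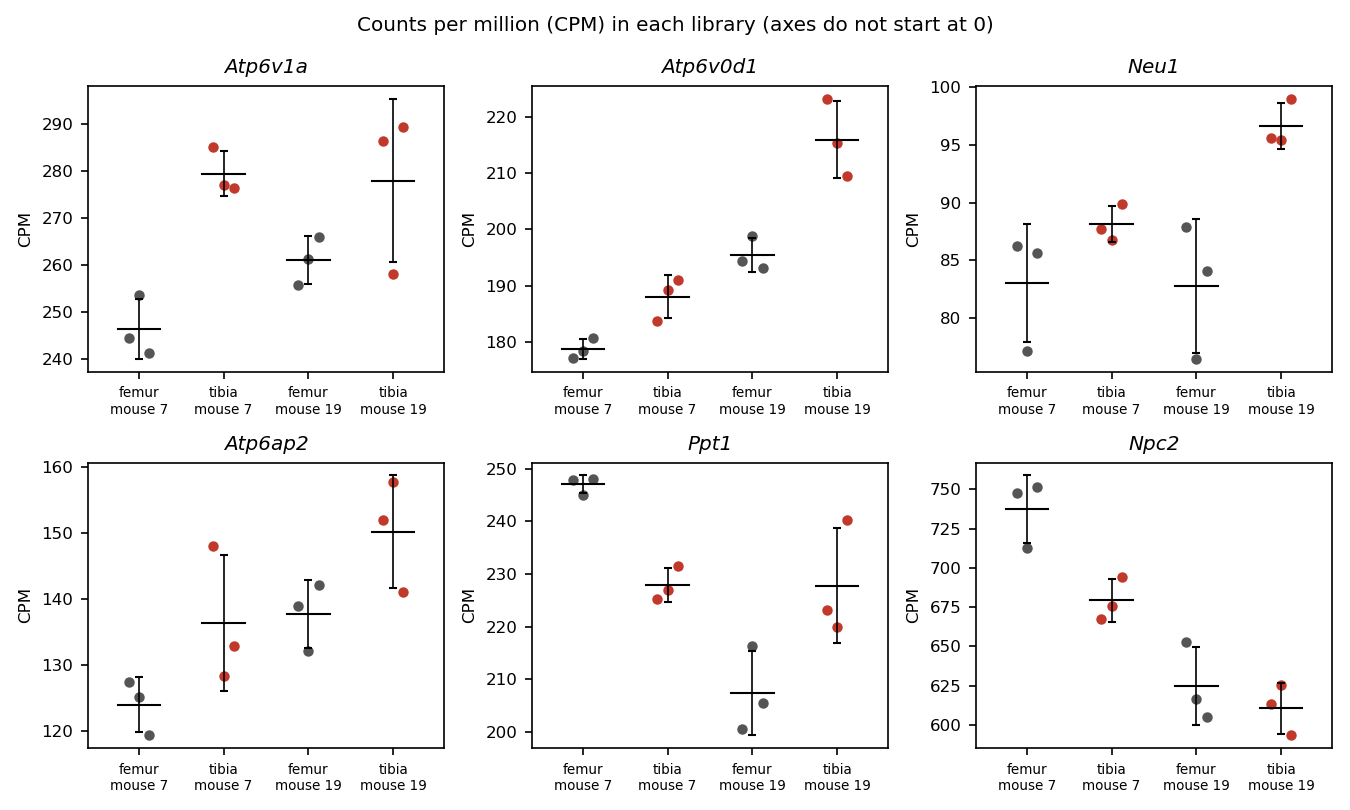
Level in CPM of Atp6v1a, Atp6v0d1, Neu1, Atp6ap2, Ppt1 and Npc2 in each of the 12 libraries (points), by bone and mouse, with the mean and SD of each group of 3; the axes do not start at 0. Atp6v0d1 and Neu1 have all tibia libraries above the femur libraries of the same mouse, and Ppt1 moves in opposite directions in the 2 mice.

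Of the other pump genes, 12 did not pass. Atp6ap2, the accessory subunit also called the prorenin receptor, came nearest to the threshold at a log2 fold change of 0.13 ± 0.04 (edgeR adjusted p = 0.052). It measured 127, 125 and 119 CPM in the femur and 148, 128 and 133 in the tibia of mouse 7, and 139, 132 and 142 against 152, 158 and 141 CPM in mouse 19, with 5 of 6 tibia libraries above all femur libraries of their mouse. Its adjusted p was 0.035 in DESeq2, 0.028 without the filter on low counts, 0.044 with halved counts, 0.019 when tibia 3 of mouse 19 was left out and 0.040 when tibia 2 of mouse 7 was. The stalk subunit Atp6v1g1 followed at 0.10 (edgeR adjusted p = 0.14). Its transcript is 99.4% identical over 357 bases to the pseudogene Gm13453, and that of Atp6ap2 is 98.4% identical over 438 bases to Gm36448. Atp6v1a, which passed, also has a copy, the pseudogene Gm18990, 90.2% identical over 296 bases. That of Atp6v1f is 97.5% identical over 360 bases. The part of these copies in the counts of the 4 genes Atp6v1g1, Atp6ap2, Atp6v1a and Atp6v1f was not tested. Among the 14 pump genes tested the log2 change was above 0 in 12 and below 0 in 2, Atp6v1b2 (-0.05) and the accessory subunit Atp6ap1 (-0.0067), with a median of 0.06. All 4 tested V0 genes and 7 of the 8 V1 genes were above 0. Over all genes tested, 5809 of 11806 were above 0 in the same fit. In mouse 7 alone 11 of the 14 pump genes were above 0, and in mouse 19 alone also 11. Genes of 1 complex are not independent, and the count of signs carries no test.

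Summed over its 15 genes, the pump stood at 2298 to 2332 CPM in the femur and 2342 to 2409 CPM in the tibia of mouse 7. In mouse 19 the sums were 2388 to 2399 CPM and 2422 to 2516 CPM. The tibia sums lay above the femur sums within each mouse, and the femur of mouse 19 lay within the tibia range of mouse 7. The mean sum was 2356 ± 42.6 CPM in the femur and 2426 ± 69.4 CPM in the tibia (SD, n = 6).

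**Figure D4:**
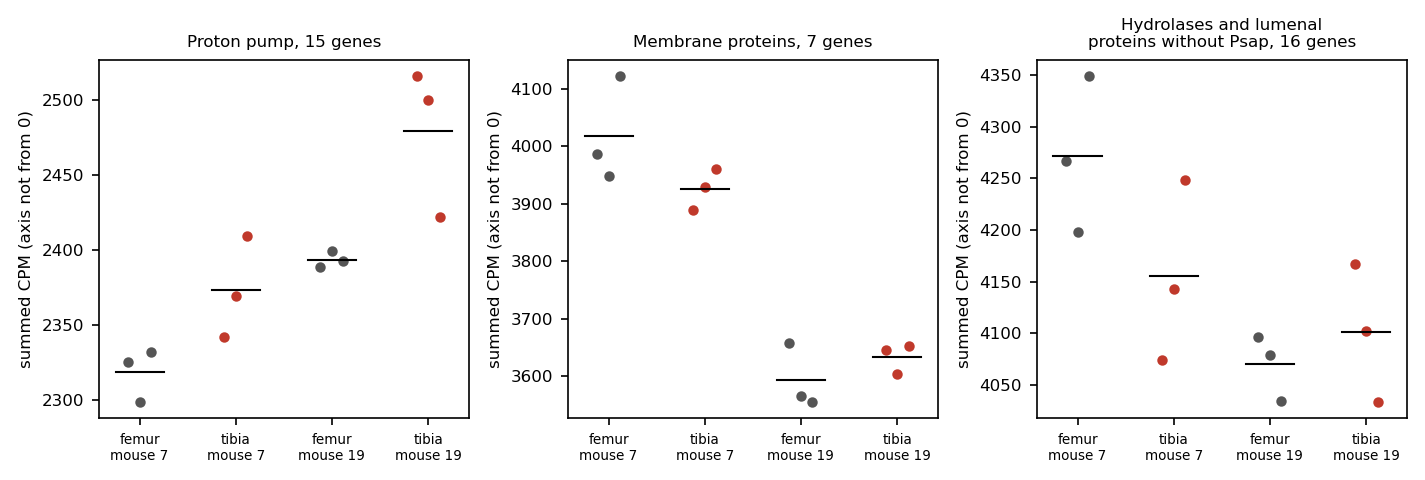
Summed CPM of the 15 pump genes, the 7 membrane protein genes and the 16 lumenal genes other than Psap in each library (points), by bone and mouse, with the mean of 3 libraries as a line; axes do not start at 0. In the pump panel the tibia points lie above the femur points of the same mouse, and in the membrane protein panel the mice separate, with mouse 7 higher.

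Among the 7 membrane protein genes 0 passed in either direction (edgeR; 0 also at an unadjusted p under 0.05, and 0 in DESeq2), and their median log2 change was -0.02. Lamp2, which also serves chaperone-mediated autophagy, had the highest value at 0.06 (95% interval -0.0059 to 0.12; adjusted p = 0.29). Laptm4a had the lowest at -0.06 (-0.14 to 0.01). Lamp1 measured 1256 ± 66.2 CPM in the femur and 1239 ± 76.0 in the tibia, a log2 difference of -0.02 with an interval of -0.07 to 0.03. Scarb2, the receptor that carries glucocerebrosidase to lysosomes, had 0.02, Npc1, the membrane cholesterol transporter, -0.03, Mcoln1 -0.01 and Laptm5 -0.02. Their sum was 3806 ± 243 CPM in the femur and 3780 ± 162 in the tibia.

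Among the 17 hydrolases and other lumenal proteins Neu1 alone passed, with 9 log2 changes above 0 and 8 below and a median of 0.0078. Without Psap the group summed to 4171 ± 122 CPM in the femur and 4128 ± 75.7 CPM in the tibia. Of the glycosidases and sulfatases, which take sugars and sulfate groups off glycans, Gla had the next highest value at 0.13. That value is the least certain of the set, with an interval of -0.04 to 0.29. Galns and Gusb, which act on glycosaminoglycans, had 0.05 each, Gaa 0.03, Glb1 0.02, Arsb -0.0060, Sgsh -0.02, Man2b1 -0.03 and Hexa -0.07. The lipid hydrolases were at -0.08 for Lipa, the acid lipase that frees cholesterol from its esters, 0.02 for the acid ceramidase Asah1 and 0.0078 for Ppt1, which removes palmitate from proteins. Tpp1, a peptidase, was at -0.05, Npc2 at -0.08, Psap at -0.04 and Grn at 0.03. Lipa, Hexa and Npc2 had unadjusted p under 0.05 and adjusted p of 0.18, 0.23 and 0.13.

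Tfeb itself measured 98.7 ± 3.36 CPM in the femur and 92.8 ± 4.49 in the tibia, a log2 difference of -0.09 (95% interval -0.17 to -0.0033; edgeR adjusted p = 0.22). Of its relatives, Tfe3 had a log2 change of 0.05, Tfec 0.08 and Mitf -0.15, with adjusted p of 0.49, 0.47 and 0.31. Tfec passed as higher in mouse 7 (0.22, adjusted p = 0.035) and had -0.07 in mouse 19 (0.70), a difference that missed the threshold (0.094). Per kb, Tfe3 (38.0 CPM), Tfeb (33.4) and Tfec (29.7) were closer to each other than to Mitf (5.57).

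For the 36 genes that did not pass, the 95% intervals of the log2 change ran from -0.17 to 0.29, or 0.887-fold to 1.22-fold, so the libraries leave room for changes within those bounds and a missed threshold does not show equal levels. With counts summed per mouse and bone, which leaves 1 residual degree of freedom, edgeR called 0 of the 39 genes higher and 0 lower. There were 3 with an unadjusted p under 0.05 (Atp6v1a, Atp6ap2 and Neu1), where 10.3% of all genes had one. By adjusted p, 0.407% of all genes were higher and 0.144% lower.

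Each mouse was then considered on its own, with 1 mean per mouse and bone in the edgeR model. In mouse 7, 1 gene of 39 was higher (4.37% of all genes) and 1 lower (5.36% of all genes). At an unadjusted p under 0.05 there were 4 higher and 6 lower, against 10.8% and 12% of all genes. The higher gene was Atp6v1a, with a log2 change of 0.18 ± 0.04 (adjusted p = 0.0057). The lower was Npc2, from 748, 712 and 752 CPM in the femur to 668, 676 and 694 CPM in the tibia, with no overlap. It fell by 0.12 on the log2 scale (adjusted p = 0.038). In mouse 19 Npc2 measured 653, 617 and 605 CPM in the femur and 613, 625 and 593 in the tibia, with overlap (adjusted p = 0.73). DESeq2 also called Man2b1 lower in mouse 7, at 732, 732 and 737 CPM in the femur and 690.3, 691 and 685 in the tibia (log2 -0.09; edgeR adjusted p = 0.075). The Npc2 call held when femur 3 or any of the tibia libraries of mouse 19, or femur 2 of mouse 7, was left out, and was lost without any 1 of the other 7 libraries, with adjusted p from 0.051 to 0.14.

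In mouse 19, 2 of the 39 genes were higher (2.96% of all genes) and 0 lower (2.21% of all genes). DESeq2 gave the same counts of 2 and 0, and at an unadjusted p under 0.05 edgeR had 10 higher and 0 lower (8.85% and 8.33% of all genes). The 2 were Neu1 (log2 0.23 ± 0.06, adjusted p = 0.021) and Atp6v0d1 (0.14 ± 0.04, 0.040). The Neu1 call was lost without femur 2, tibia 1 or tibia 3 of that mouse (adjusted p 0.055 to 0.16). That of Atp6v0d1 was lost when any of its femur libraries, tibia 1 or tibia 2 was left out, and likewise femur 1 or tibia 3 of mouse 7 (0.053 to 0.21). None of Atp6v1a, Atp6v0d1 and Neu1 passed in the test of the difference between the mice (adjusted p 0.54, 0.64 and 0.47), so a call in 1 mouse does not show that the other mouse differed.

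The difference between the mice passed for 1 of the 39 genes, Ppt1, and for 4.74% of all genes. Ppt1, palmitoyl-protein thioesterase, measured 248, 245 and 248 CPM in the femur and 225, 227 and 232 CPM in the tibia of mouse 7. In mouse 19 the order was the opposite, with 200.4, 216 and 205 CPM in the femur and 223, 220 and 240 CPM in the tibia. Neither mouse showed overlap between its bones. The log2 changes were -0.12 ± 0.04 in mouse 7 and 0.13 ± 0.04 in mouse 19. Neither passed within its own mouse (edgeR adjusted p 0.086 and 0.068). The femur means were 247 CPM in mouse 7 and 207 CPM in mouse 19, while the tibia means were 228 CPM in both. The difference between the 2 changes was 0.25 ± 0.06 (edgeR adjusted p = 0.011). Without femur 1 of mouse 19 the adjusted p was 0.060. Atp6v1h, the regulatory H subunit of the pump, had changes of 0.18 and -0.10 and a difference of -0.28 that missed the threshold (adjusted p = 0.067).

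**Figure D5:**
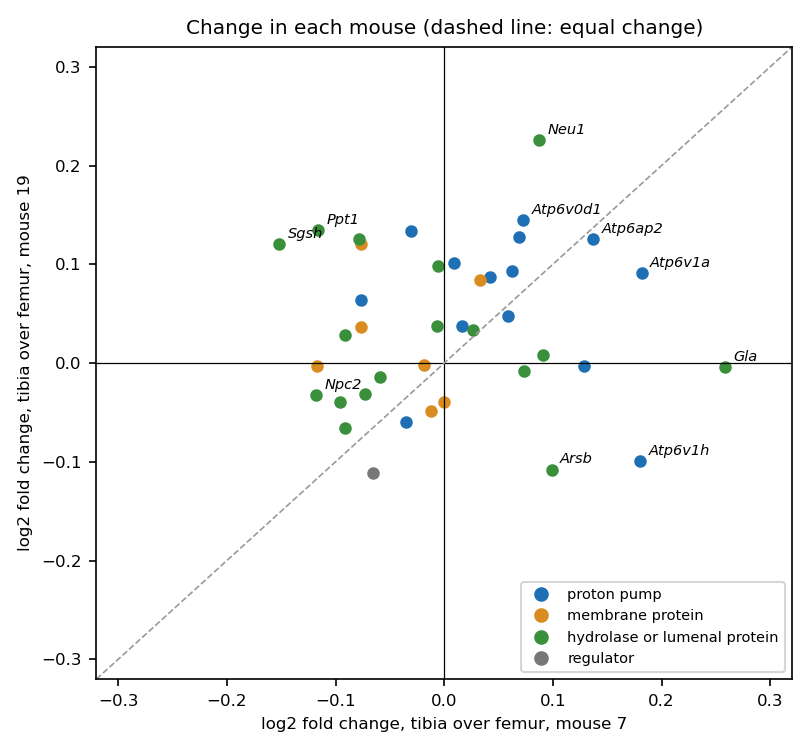
Log2 fold change, tibia over femur, of the 39 tested genes in mouse 7 (horizontal axis) and mouse 19 (vertical axis), coloured by role; the dashed line marks equal change. Atp6v1a, Atp6v0d1, Neu1 and Atp6ap2 lie above 0 in both mice, while Ppt1 lies below 0 in mouse 7 and above 0 in mouse 19.

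For 29 of the 39 genes the femurs of the 2 mice differed by more than the change between bones fitted over both mice. The median absolute log2 values were 0.12 and 0.05. Over all genes tested the same held for 71.6%, with medians of 0.16 and 0.08. The 2 measures are unlike, because opposite changes in the 2 mice cancel in the second. Within mouse 7 alone the median absolute change between bones was 0.07, and within mouse 19 alone it was 0.06. Over all genes these were 0.11 and 0.09. The comparison of the mice is a description with 1 animal on each side. The femur libraries of the mice did not overlap in 27 of the 39 genes, against 40.9% of all genes tested. Over all genes, 20.3% were higher and 20.7% lower in mouse 19 without overlap. Of the 14 pump genes 8 were higher and 1 (Atp6ap1) lower in mouse 19, of the 7 membrane protein genes 0 were higher and 5 lower, and of the 17 lumenal genes 4 were higher and 9 lower. In the other genes libraries of the mice overlapped. Scarb2 stood at 134, 147 and 148 CPM in the femur of mouse 7 and 103, 111 and 105 CPM in that of mouse 19, a log2 difference of -0.43. Arsb, which removes sulfate from dermatan and chondroitin sulfate, was the other way round at 78.6, 79.4 and 76.9 CPM against 103, 101 and 112 CPM, a difference of 0.43. Exons of other genes on the opposite strand cover 59.7% of the exon length of Arsb, so its reads could not be assigned with certainty. Beside these values, the summed neutrophil markers in the femur were 8089 to 8896 CPM in mouse 7 and 11531 to 13191 in mouse 19, and the classical monocyte markers 9159 to 9408 and 7873 to 8018 CPM. The 9 macrophage markers summed to 2101 to 2229 CPM in the femur and 2016 to 2043 in the tibia of mouse 7, and to 1693 to 1712 and 1939 to 2041 CPM in mouse 19, lower in the tibia of the first and higher in that of the second, as Ppt1 was. The part of these cells in the differences between the mice, and in that of Ppt1, was not tested.

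Another 70 genes of the lysosome, its enzyme sorting and its mTORC1 signalling platform give the wider setting. In the same test 63 of them entered, of which 2 were higher and 1 lower in the tibia, with a median log2 change of -0.02 (against 3.51% and 3.69% of all genes). In mouse 7 alone 2 were higher and 6 lower, against 4.37% and 5.36% of all genes. In mouse 19 alone 4 were higher and 1 lower, against 2.96% and 2.21% of all genes. Cd63, a tetraspanin of late endosomes and lysosomes, measured 27.9, 32.6 and 28.7 CPM in the femur and 34.6, 36.5 and 37.5 in the tibia of mouse 7. In mouse 19 it measured 51.6, 44.8 and 53.2 CPM in the femur and 67.6, 67.1 and 53.2 in the tibia. All 6 tibia libraries lay above the femur libraries of the same mouse, tibia 3 of mouse 19 by the smallest margin. The log2 change was 0.31 ± 0.06 (edgeR adjusted p = 0.0033; 0.084 on sums per animal). Acp2, the lysosomal acid phosphatase, rose from 39.2 ± 3.99 to 45.7 ± 6.40 CPM (0.22 ± 0.05, adjusted p = 0.0069; 0.30 on sums; above in 6 of 6). Idua, the alpha-iduronidase, fell by 0.20 on the log2 scale (edgeR adjusted p = 0.0496; 0.46 on sums). It measured 36.0, 39.1 and 38.7 CPM in the femur and 28.3, 30.3 and 31.98 in the tibia of mouse 7, and 28.6, 31.5 and 30.1 against 28.0, 29.9 and 28.9 CPM in mouse 19. Taken per animal, Idua changed by -0.33 on the log2 scale in mouse 7 (adjusted p = 0.0052), while the value for mouse 19 was -0.06 (0.78); the gap between these 2 values missed the threshold (edgeR adjusted p = 0.21). The Idua call held when femur 1, tibia 2 or tibia 3 of mouse 19 was left out and was lost without any 1 of the other 9 libraries, with adjusted p from 0.053 to 0.13.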

How the data were processed

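Macrophages were sorted from marrow of treated tibias and untreated femurs, RNA was purified on columns with a DNase step, and mRNA libraries were made with a Vazyme kit, per the labels' protocols. The deposited values are raw read counts per gene, 1 column per library. Per the submitters' processing notes, the genome was mm10, with HISAT2, featureCounts, Subread, bcl2fastq and DESeq2 among the tools. The sources used here do not give versions, strand setting or annotation, so overlapping genes and antisense partners cannot be told apart. Among counts from 1 to 10, 69.8% were even, as when each end of a pair counts once.

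All 12 columns were mapped to samples by title. The list of 40 genes, the other gene lists and the motifs were chosen with earlier results of these data known. All 40 genes are accounted for; those past the threshold in edgeR over both mice, on sums or for the difference between mice are named with their values per library, and at least 1 gene of each role is named. Of the other lysosomal genes, pump isoforms, relatives of Tfeb and those past the threshold over both mice are named. Counts were fitted in R 4.3.3 with edgeR 4.0.16 (TMM, filterByExpr with minimum count 10 over the 4 groups of mouse and bone, glmQLFit, glmQLFTest, two-sided, Benjamini-Hochberg at 0.05 over all genes tested), with the mouse as a term, since the titles name the animal of each bone. The genes kept held at least 99.9% of each library's counts. Contrasts within a mouse and between mice used 1 mean per mouse and bone. The same test was run on counts summed per mouse and bone. Standard errors are the size of the change over the root of the F value. CPM use TMM-scaled library sizes. Levels between genes were divided by the exon union of GENCODE M21 transcripts (GRCm38, which mm10 names) linked to a RefSeq accession. Copies were found with blastn 2.17.0 (at least 200 bases and 90% identity). Promoters are RefSeq windows of GRCm38.p6. Alternatives were another size factor, DESeq2 1.42.0, no filter, halved counts, other blocks and leaving out each library. The fit was tested on simulated data. A result for another lysosomal gene is not reported here.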

Additional observations from a re-analysis of the deposited data

Results flagged for a closer look

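The change between the bones differed between the mice in Ppt1, Igf2r and Gm2a. The test was that of the difference itself, in the edgeR model with 1 mean per mouse and bone. Ppt1 was the only 1 of the 39 genes to pass it, and Igf2r and Gm2a belong to the 63 other lysosomal genes tested. Over all 11806 genes tested 4.74% passed, so a few such calls are near the background. Ppt1 differed by 0.25 on the log2 scale (mouse 19 minus mouse 7; adjusted p = 0.011), from -0.12 to 0.13. Igf2r, the receptor that sorts hydrolases to lysosomes, differed by 0.48 (adjusted p = 0.037), with -0.0030 in mouse 7 and 0.48 in mouse 19. It measured 26.6, 33.0 and 30.4 CPM in the femur and 34.7, 26.2 and 29.1 in the tibia of mouse 7, and 34.1, 27.7 and 32.9 against 41.1, 45.0 and 45.6 CPM in mouse 19. Gm2a, the activator protein of ganglioside breakdown, differed by 0.19 (adjusted p = 0.046), with -0.12 and 0.07. It measured 636, 612 and 656 CPM in the femur and 584, 582 and 584 in the tibia of mouse 7, and 520.1, 529 and 522 against 584, 516 and 544 CPM in mouse 19. The Igf2r call was lost when femur 2, tibia 2 or tibia 3 of either mouse, or femur 3 of mouse 7, was left out (adjusted p 0.073 to 0.15). Among the fits that leave out 1 library, the Gm2a call held when tibia 2 of mouse 19 or femur 2 of mouse 7 was left out, and without any 1 of the other 10 the adjusted p was 0.074 to 0.21. With all libraries it was lost under DESeq2-type size factors (0.055) and with halved counts (0.067). Only 2 animals stand behind these differences.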

How the results depend on the processing

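The count of 3 higher genes over both mice was 4 in DESeq2 and with halved counts, 3 with other size factors, 3 without the filter on low counts (with Atp6ap2 in place of Atp6v0d1), 0 on sums per animal, and 1 to 3 without any 1 library. Without a mouse term it was 0. Same-numbered femur and tibia libraries of a mouse did not deviate together (r from -0.05 to 0.0006 over 6 pairs, 0 above 0.1), so the library numbers do not pair the samples; with the replicate block of mouse and library number the count was 1, Atp6v1a. The count of lower genes was 0 in all of these. In mouse 7 the higher count was 2 with halved counts and 1 to 2 without 1 library, and the lower count was 2 in DESeq2, 0 with halved counts and 0 to 1 without 1 library. In mouse 19 the higher count was 0 to 2 without 1 library. The difference between mice was called in 2 genes with halved counts, Ppt1 and Atp6v1h, and in 1 without any 1 library, which was Atp6v1h in place of Ppt1 when femur 1 of mouse 19 was left out. Of the other lysosomal genes, 4 were higher without the filter, 0 without a mouse term and 0 on sums (2 to 3 without 1 library). The lower count was 0 without a mouse term, with the replicate block and on sums (0 to 1 without 1 library). The signs of the 14 pump genes were above 0 in 12 under every full-library setting, and in 11 to 13 without 1 library. No gene past the threshold reversed. Over both mice, the alternatives gave 679 fits of members past the threshold neither there nor under the main settings, and 22 of these had the other sign. Depth bears on the low members, such as Gla, whose interval is the widest.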
